A study of Mus musculus with 50 samples.

Results

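The circadian clock genes Arntl, Clock, Per1, Per2, Per3, Cry1, Cry2, Nr1d1, Nr1d2 and Dbp were followed in the left ventricle of the mouse heart. They were picked by gene symbol and make up 10 of the 35717 genes of the deposited table. All 10 passed the filter on low values (5 or more libraries with an FPKM of 1 or more), as did 11628 genes in all. The study measured poly(A) RNA by paired-end sequencing in mice with a cardiomyocyte-specific LARP6 transgene (Tg) and in wild-type littermates (WT), all 40 weeks old and C57BL/6J. The protein LARP6 binds RNA and is known for its hold on collagen mRNAs. Mice were infused for 21 days with saline or with angiotensin II (Ang II), the pressor peptide of the renin-angiotensin system, given at 1000 ng/kg per minute. This gave 13 libraries of Tg Ang II hearts, 12 of Tg saline, 14 of WT Ang II and 11 of WT saline, with 25 females and 25 males. The transgene's promoter is not given in the sources used here. The hour of the day at which hearts were collected is not among the labels used here. No label says that each library came from a separate animal, so p-values measure the spread between these libraries.

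The clock is a feedback loop of transcription that runs in nearly every cell, heart muscle cells included. CLOCK and BMAL1 (the product of Arntl) pair up and bind E-boxes in the promoters of the Per, Cry and Nr1d genes and of Dbp. PER and CRY proteins then return to the nucleus and inhibit CLOCK and BMAL1. The nuclear receptors encoded by Nr1d1 and Nr1d2 (REV-ERB alpha and beta) repress Arntl through ROR elements, and DBP activates genes with D-boxes. In mouse tissues Arntl mRNA is known to peak at nearly the opposite time of day to the mRNAs of Dbp and the Per genes, while Cry1 mRNA is known to peak later than the Per mRNAs and Nr1d1 mRNA earlier. Transcripts of these genes in the heart are known to swing strongly over a day.

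Before the results, 2 libraries need naming. Library 329 is labelled WT Ang II and its table column carries the letters of Tg, and library 847 is labelled Tg Ang II and its column carries the letters of WT. Larp6 stood at 1004 scaled FPKM in library 329 and 1119 in library 847, against 444 to 1631 in the Tg libraries and 5.61 to 63.7 in the other WT libraries. In Larp6, library 329 thus lay in the range of the Tg libraries against its label, and library 847 lay there as labelled. Both are kept under their labels here as the library labelled WT and the library labelled Tg. The WT Ang II hearts below thus include library 329. Scaled FPKM is the authors' FPKM (fragments per kilobase of transcript, scaled to the library's mapped fragments) divided, library by library, by a factor from the median of ratios, which was 0.776 to 1.14. Total counts were 53877439 to 91579342 per library. All 6 markers each of cardiomyocytes, endothelial cells, fibroblasts, macrophages, and smooth muscle with pericytes were above 0 in every library. In whole tissue, fewer cells of a type and less RNA per cell cannot be told apart.

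Promoter windows from RefSeq (GRCm38.p6, 250 bases before to 50 bases after the annotated start) were found for 9 of the 10 genes, 13 windows in all, every gene but Per2. They were searched on both strands for the E-box CACGTG, the D-box TTANGTAA and the ROR element TAGGTCA, which do not overlap where found. The 4 windows below are shown because they hold all the matches found in the members' windows. Matches are in capitals, and each window is given 5′ to 3′ on the strand of its gene.
Arntl: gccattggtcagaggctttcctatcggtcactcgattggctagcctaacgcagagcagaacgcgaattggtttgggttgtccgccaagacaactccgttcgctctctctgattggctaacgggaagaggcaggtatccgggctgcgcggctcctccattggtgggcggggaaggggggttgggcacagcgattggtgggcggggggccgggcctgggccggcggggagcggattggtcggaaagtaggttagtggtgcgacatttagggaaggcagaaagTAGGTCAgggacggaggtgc
Per1: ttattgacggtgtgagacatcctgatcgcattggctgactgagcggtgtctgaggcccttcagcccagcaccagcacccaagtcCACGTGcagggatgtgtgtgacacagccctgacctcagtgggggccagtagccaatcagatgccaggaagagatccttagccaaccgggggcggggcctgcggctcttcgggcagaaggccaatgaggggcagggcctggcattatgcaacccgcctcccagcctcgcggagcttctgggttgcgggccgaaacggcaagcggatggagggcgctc
Per3: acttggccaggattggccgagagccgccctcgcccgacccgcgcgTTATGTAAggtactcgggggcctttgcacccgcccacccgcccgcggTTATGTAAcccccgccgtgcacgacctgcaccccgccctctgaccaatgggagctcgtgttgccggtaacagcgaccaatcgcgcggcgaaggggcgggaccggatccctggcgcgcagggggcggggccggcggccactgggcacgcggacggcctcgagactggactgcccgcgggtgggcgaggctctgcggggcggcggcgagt
Cry1: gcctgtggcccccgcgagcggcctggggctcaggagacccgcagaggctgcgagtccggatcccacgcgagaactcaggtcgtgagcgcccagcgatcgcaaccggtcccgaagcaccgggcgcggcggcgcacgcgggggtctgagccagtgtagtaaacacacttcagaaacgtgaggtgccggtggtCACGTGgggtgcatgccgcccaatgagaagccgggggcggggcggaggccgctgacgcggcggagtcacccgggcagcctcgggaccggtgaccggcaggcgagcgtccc
The Arntl window (chr7:113207261-113207560, plus strand) held a ROR element that began 30 bases after the start. The Per1 window (chr11:69098699-69098998, plus strand) held an E-box at position -166 from its start, and the Cry1 window (chr10:85185005-85185304, minus strand) held one at -60. In the Per3 window (chr4:151044616-151044915, minus strand) there were 2 D-boxes, at positions -205 and -158 from the start. Of 32851 windows of the same length over all genes, 7.15% held this E-box, 2.32% the D-box and 2.61% the ROR element. A match is a run of letters and not a measured site, and other forms of these elements were not searched.

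The members differed widely in level and in how far they varied. Median scaled FPKM over the 50 libraries, which is per length of transcript, was 28.3 for Nr1d1, 14.04 for Nr1d2, 13.8 for Dbp, 8.13 for Per1, 4.135 for Cry2, 3.46 for Per2, 2.34 for Clock, 2.33 for Per3, 2.03 for Cry1 and 0.932 for Arntl. The ranges over libraries of each gene and its neighbour in this order overlapped. Arntl, the lowest, was counted 113 to 1454 times per library. The highest library stood 12.05-fold above the lowest for Dbp, 10.8-fold for Arntl, 10.3-fold for Per2 and 9.29-fold for Per1. The same ratio was 7.84-fold for Per3, 7.50-fold for Nr1d1, 3.99-fold for Cry1, 2.74-fold for Nr1d2, 2.56-fold for Cry2 and 2.21-fold for Clock. Within the groups, the biological coefficient of variation (BCV) from edgeR, which is the spread between libraries of 1 group and sex beyond counting error, was 0.647 for Arntl, against a median of 0.119 over all genes tested. Arntl ranked 74 of 11628 genes by it. It was 0.524 for Dbp, 0.512 for Per2, 0.450 for Nr1d1, 0.424 for Per3 and 0.407 for Per1, so that 6 members stood in the top 5% of genes. Cry1 (0.307), Nr1d2 (0.255), Cry2 (0.221) and Clock (0.177) varied less, and each still lay above the median gene.

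**Figure D1:**
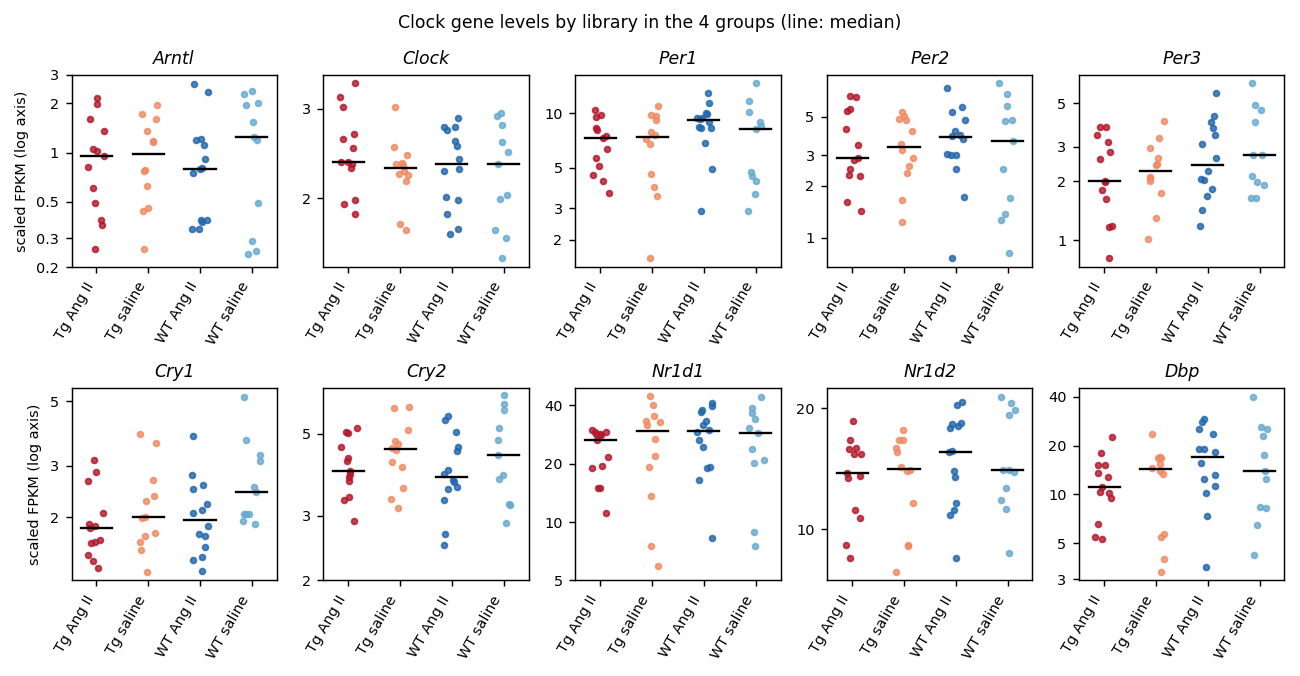
Scaled FPKM (log axis) of the 10 clock genes in each of the 50 libraries, by group (Tg Ang II, Tg saline, WT Ang II, WT saline); each point is 1 library and each line the median of the group. The points of every gene overlap between all 4 groups, and Arntl runs from 0.241 to 2.61 and Dbp from 3.33 to 40.1.

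The activators come first. Arntl (ENSMUSG00000055116, chromosome 7, 113207465 to 113314126, plus strand, GRCm38) ranged from 0.258 to 2.17 scaled FPKM in Tg Ang II hearts (median 0.946) and from 0.258 to 1.96 in Tg saline hearts (median 0.978). In WT Ang II hearts it ranged from 0.340 to 2.61 (median 0.803) and in WT saline hearts from 0.241 to 2.37 (median 1.25). Each group thus held libraries near the lowest and near the highest level of Arntl, and no group stood apart. How many of all genes have ranges that overlap between groups was not counted, here or for the other members. The log2 fold change from edgeR was -0.29 ± 0.40 (SE) for Tg over WT under saline, with a 95% interval of -1.10 to 0.51. Clock (ENSMUSG00000029238, chromosome 5, 76209868 to 76304792, minus strand), the partner of BMAL1, had medians of 2.36 in Tg Ang II, 2.29 in Tg saline, 2.33 in WT Ang II and 2.34 in WT saline hearts. Its libraries lay between 1.52 and 3.37 over all groups. Its log2 fold changes in the 4 comparisons of genotype and treatment lay between 0.01 and 0.14, each below 2 times its SE, and its intervals were the narrowest of the 10 genes (for Tg over WT under saline -0.20 to 0.22).

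The Per genes encode the repressors that gather and decay each day. Per1 (ENSMUSG00000020893, chromosome 11, 69095217 to 69109960, plus strand) ranged from 3.65 to 10.5 scaled FPKM in Tg Ang II hearts (median 7.36), 1.58 to 11.04 in Tg saline (median 7.42), 2.89 to 12.96 in WT Ang II (median 9.18) and 2.89 to 14.7 in WT saline (median 8.20). The lowest library in Per1 was library 965, a Tg saline heart. Per2 (ENSMUSG00000055866, chromosome 1, 91415982 to 91459324, minus strand) ranged from 1.43 to 6.59 in Tg Ang II (median 2.87), 1.23 to 5.35 in Tg saline (median 3.34), 0.759 to 7.38 in WT Ang II (median 3.805) and 0.824 to 7.80 in WT saline hearts (median 3.63). For both genes the ranges of all 4 groups overlapped. Per3 (ENSMUSG00000028957, chromosome 4, 151003652 to 151044665, minus strand) ranged from 0.809 to 3.79 in Tg Ang II (median 2.00), 1.02 to 4.07 in Tg saline (median 2.26), 1.18 to 5.64 in WT Ang II (median 2.44) and 1.64 to 6.34 in WT saline hearts (median 2.73). Its log2 fold change was -0.44 ± 0.26 for Tg over WT under saline (interval -0.96 to 0.09, adjusted p = 0.179) and -0.30 ± 0.24 under Ang II (adjusted p = 0.372), neither past the test of edgeR. Per3 lies within the span of Camta1 on the same strand.

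The cryptochromes complete the repressor complex with the PER proteins. Cry1 (ENSMUSG00000020038, chromosome 10, 85131700 to 85185064, minus strand) ranged from 1.34 to 3.15 scaled FPKM in Tg Ang II hearts (median 1.83), 1.302 to 3.87 in Tg saline (median 2.00), 1.31 to 3.79 in WT Ang II (median 1.96) and 1.89 to 5.19 in WT saline (median 2.45). Cry1 gave the smallest unadjusted p among the members, for Ang II over saline in WT, with a log2 fold change of -0.41 ± 0.18 (interval -0.77 to -0.04, p = 0.0291 by edgeR). Its adjusted p was 0.108, so it was not called. Leaving out library 328, the highest WT Ang II library in Cry1, gave -0.51 ± 0.17 with an adjusted p of 0.0364, the single call of a member among 50 fits that each left out 1 library. Over these fits the adjusted p of Cry1 ran from 0.0364 to 0.334, and its log2 fold change from -0.51 to -0.26. Over 7 other settings its adjusted p ran from 0.0867 to 0.203. In Tg hearts the value for Ang II over saline was -0.18 ± 0.18, and the difference between the genotypes in the response to Ang II was 0.22 ± 0.25 (adjusted p = 0.797 by edgeR). Cry2 (ENSMUSG00000068742, chromosome 2, 92403646 to 92434043, minus strand) had medians of 3.97 in Tg Ang II, 4.54 in Tg saline, 3.81 in WT Ang II and 4.37 in WT saline hearts, and ranged from 2.49 to 6.36 over all libraries. Its log2 fold changes for Ang II over saline were -0.13 ± 0.13 in Tg and -0.17 ± 0.13 in WT hearts. With runs of library numbers that lie close together as a term in the fit, the value in Tg hearts was -0.32 ± 0.11 (p = 0.00422, adjusted p = 0.0652 by edgeR), which was not called.

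The nuclear receptors and the output factor had the highest levels. Nr1d1 (ENSMUSG00000020889, chromosome 11, 98767932 to 98775333, minus strand) ranged from 11.1 to 29.7 scaled FPKM in Tg Ang II hearts (median 26.5), 5.92 to 44.4 in Tg saline (median 29.3), 8.25 to 41.1 in WT Ang II (median 29.4) and 7.50 to 44.0 in WT saline (median 28.8). Nr1d2 (ENSMUSG00000021775, chromosome 14, 18204054 to 18239127, minus strand) had medians of 13.8 in Tg Ang II, 14.2 in Tg saline, 15.6 in WT Ang II and 14.01 in WT saline hearts, within 7.83 to 21.4 over all libraries. The medians of both genes differed by far less than the libraries of any 1 group. Dbp (ENSMUSG00000059824, chromosome 7, 45705088 to 45710203, plus strand), a PAR bZIP factor that carries the rhythm to other genes, ranged from 5.33 to 22.6 in Tg Ang II hearts (median 11.1), 3.33 to 23.6 in Tg saline (median 14.3), 3.58 to 29.3 in WT Ang II (median 17.03) and 4.23 to 40.1 in WT saline (median 14). Its log2 fold change was -0.51 ± 0.30 for Tg over WT under Ang II (interval -1.11 to 0.09, adjusted p = 0.193 by edgeR) and -0.45 ± 0.32 under saline (adjusted p = 0.275). The end of Nr1d1 overlaps Thra on the opposite strand by 1075 bases, and Dbp overlaps Sphk2 by 737 bases, also on the opposite strand. Cry2 overlaps D930015M05Rik by 23417 bases and Arntl overlaps Gm45355 by 2394 bases, both on the opposite strand. The libraries were made by a method that keeps the strand, but whether counting used it is not given in the sources used here. On the same strand, Per3 overlaps Camta1 (mean 6.04 scaled FPKM) by 41014 bases. Clock overlaps Ube2n-ps1 by 459 bases and Gm43658 by 4176 bases, also on the same strand. Strand would not part reads of these. Levels of Nr1d1, Dbp, Cry2, Arntl, Per3 and Clock are thus uncertain by the share of such reads.

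**Figure D2:**
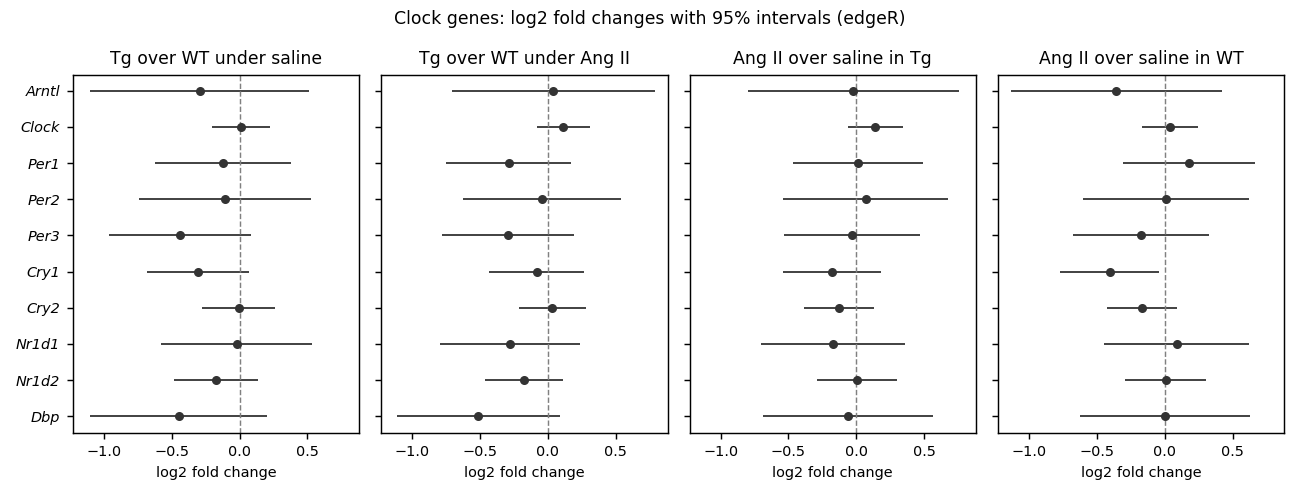
Log2 fold change (x axis) of each clock gene in 4 comparisons of genotype or treatment, from edgeR over 50 libraries; points are estimates and bars 95% intervals, and the dashed line marks 0. All intervals but 1 cross 0, the exception being Cry1 for Ang II over saline in WT (-0.77 to -0.04).

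None of the 10 clock genes passed the test in any comparison of genotype, treatment or sex. The test was edgeR's quasi-likelihood test with Benjamini-Hochberg adjustment over the 11628 genes, and a gene is called at an adjusted p under 0.05. For Tg over WT under saline 0 of 10 members were called, where 40.6% of all genes tested were called. For Tg over WT under Ang II it was 0 of 10 members against a background of 32.8%. For Ang II over saline it was 0 of 10 in Tg hearts against 8.93%, and 0 of 10 in WT hearts against 18.6%. The difference in the Ang II response between Tg and WT called 0 of 10 members against 0.0430% of genes, and females over males called 0 of 10 against 4.42%. At an unadjusted p under 0.05 the only member was Cry1, for Ang II over saline in WT, and DESeq2 and limma each gave 1 member at that level there and 0 elsewhere, with 0 called by either tool. With runs of library numbers as a term, edgeR gave 3 at that level, Cry1 for Ang II over saline in WT, Cry2 for Ang II over saline in Tg, and Dbp for Tg over WT under Ang II (-0.60 ± 0.27, p = 0.0338, adjusted p = 0.0914), again with 0 called. Median log2 fold changes of the 10 genes were -0.15 for Tg over WT under saline and -0.13 under Ang II, and -0.03 and 0.00 for Ang II over saline in Tg and WT hearts, while the medians over all genes tested were 0.00, -0.01, -0.01 and 0.00 in that order.

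A missed threshold does not show that the groups were alike, since the clock genes vary so much within groups. Over the members, the 95% intervals reached down to -1.10 and up to 0.53 for Tg over WT under saline, and to -1.11 and 0.79 under Ang II. For Ang II over saline they reached -0.80 and 0.75 in Tg hearts and -1.13 and 0.66 in WT hearts. For Clock the interval was within -0.20 and 0.35 in each of these 4 comparisons. Between the sexes the largest member values were 0.24 ± 0.17 for Per1 and 0.24 ± 0.21 for Per2 for females over males, with an adjusted p of 0.445 and 0.565 by edgeR. Markers of other cells moved with the genotype at the same time. Under saline, Tg over WT, 6 of 6 fibroblast and 6 of 6 macrophage markers were higher, 5 of 6 endothelial markers were lower and 4 of 6 cardiomyocyte markers were lower. Of 6 smooth muscle and pericyte markers 4 were lower and 1 was higher. These counts stand against the 40.6% of all genes called in this comparison in either direction. The part of these cells in the values of the clock genes was not tested.

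Between libraries of the same group, the clock genes moved jointly. The level of each gene was taken as log2(scaled FPKM + 1), the mean of its group and sex was removed, and all 45 pairs of members were correlated over the 50 libraries. Of these pairs 35 passed a two-sided permutation test with 100000 resamples within group and sex, adjusted over the 45 pairs. In 21 pairs the genes moved together and in 14 they moved oppositely, and the median absolute Pearson r was 0.63. How many pairs of other genes would pass this test was not counted, here or in the settings below. Over all genes tested, the median absolute r with Arntl was 0.193. Arntl moved with its partner Clock (r = 0.799, Spearman rho = 0.788). It moved against Per3 (r = -0.937, rho = -0.942), Per2 (r = -0.901, rho = -0.904), Cry2 (r = -0.864, rho = -0.858), Nr1d2 (r = -0.789, rho = -0.796), Dbp (r = -0.787, rho = -0.783) and Per1 (r = -0.65, rho = -0.637). For each of these 7 pairs the permutation p was 1e-05 for r and for rho, the smallest these permutations can give, with adjusted values of 2.25e-05 and 2.37e-05. Without the 2 libraries farthest from the median of Arntl, r was -0.931 with Per3, -0.897 with Per2 and 0.773 with Clock.

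Among the genes that moved against Arntl, all pairs moved together, some closely and some less so. The weakest was Per1 with Cry2 (r = 0.526, rho = 0.492, permutation p = 0.00038 and adjusted p = 0.000658 for r). The 2 strongest follow. Nr1d2 and Dbp gave r = 0.902 (rho = 0.888) and Per2 and Per3 gave r = 0.891 (rho = 0.911), each with a permutation p of 1e-05 (adjusted 2.25e-05). The library with the lowest Arntl over all groups was library 488, a WT saline heart with 0.24 scaled FPKM of Arntl, 4.63 of Per3 and 26.0 of Dbp. At the other end stood library 165, a WT Ang II heart with 2.61 of Arntl, 1.18 of Per3 and 3.58 of Dbp. The log2 ratio of Dbp to Arntl, a pair known to peak at opposite times of day, was 0.46 in library 165 and reached 7.34 in library 776, a WT saline heart. Its medians were 3.71 in Tg Ang II, 4.02 in Tg saline, 4.16 in WT Ang II and 2.84 in WT saline hearts, and its ranges overlapped between all groups (1.297 to 6.45, 1.31 to 6.51, 0.46 to 6.43 and 1.46 to 7.34).

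**Figure D3:**
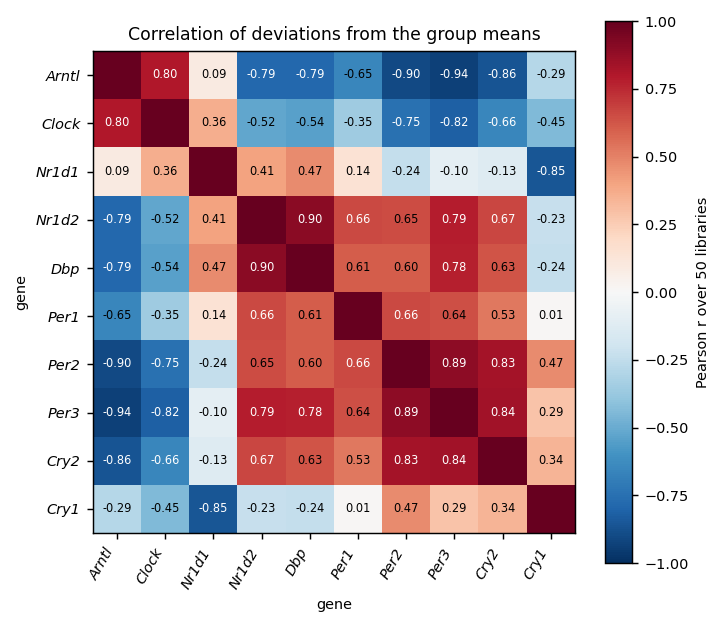
Pearson r (colour and number) for the 45 pairs of clock genes over 50 libraries, after the mean of each group and sex was removed. Arntl and Clock form 1 block (r = 0.799) against Per1, Per2, Per3, Cry2, Nr1d2 and Dbp, and Cry1 and Nr1d1 oppose each other (r = -0.854).

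Most signs were the same within each group taken alone. Arntl and Per3 gave r = -0.967 in Tg Ang II, -0.915 in Tg saline, -0.88 in WT Ang II and -0.983 in WT saline hearts. All of the 35 pairs called over the 50 libraries kept their sign in Tg saline, WT Ang II and WT saline hearts, and 33 of them did in Tg Ang II hearts. By number, 36 pairs passed in Tg Ang II, 6 in Tg saline, 24 in WT Ang II and 17 in WT saline hearts, which hold 11 to 14 libraries each.

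Cry1 and Nr1d1 followed a second pattern. They opposed each other (r = -0.854, rho = -0.739, permutation p = 1e-05 and adjusted p = 2.25e-05 for r), and without the 2 libraries farthest from the median of Cry1 r was -0.82. Neither passed the test with Arntl by Pearson r: Cry1 gave r = -0.286 (permutation p = 0.0541, adjusted p = 0.0658) and Nr1d1 r = 0.089 (permutation p = 0.566, adjusted p = 0.579). By ranks Cry1 did pass with Arntl (rho = -0.378, permutation p = 0.0114, adjusted p = 0.0151). In Tg Ang II hearts alone their r passed (-0.609, adjusted p = 0.0274 by permutation). Both genes also passed with other members by permutation of r. Cry1 did so with Per2 (r = 0.472, adjusted p = 0.00183), Clock (r = -0.445, adjusted p = 0.00259) and Cry2 (r = 0.343, adjusted p = 0.0415). Nr1d1 did so with Dbp (r = 0.473, adjusted p = 0.00401), Nr1d2 (r = 0.405, adjusted p = 0.0128) and Clock (r = 0.362, adjusted p = 0.0145). In 5 libraries Nr1d1 was under 10 scaled FPKM (5.92 to 8.89), with Cry1 at 3.61 to 5.19. In the other 45 libraries Nr1d1 was at least 11.1 and Cry1 1.302 to 3.27. The limit of 10 was chosen after the values were seen. They are libraries 153 and 237 (Tg saline), 328 (WT Ang II) and 232 and 332 (WT saline), and no Tg Ang II library was below that limit. Over the other 45 libraries r for Cry1 and Nr1d1 was -0.695 (rho = -0.594, permutation p = 1e-05 and adjusted p = 1.8e-05 for r), and Arntl and Cry1 then gave r = -0.497 (rho = -0.511, permutation p = 0.00132, adjusted p = 0.00186).

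A principal component analysis of the 10 genes, each scaled to equal variance, gave 2 directions that held most of the variance. The first component held 61.1% and the second 25.04%, against 5.76% for the third. On the first, Arntl (weight 0.395) and Clock (0.324) lay opposite Per3 (-0.393), Per2 (-0.373), Cry2 (-0.356), Nr1d2 (-0.338), Dbp (-0.331) and Per1 (-0.29). On the second, Cry1 (0.582) lay opposite Nr1d1 (-0.611), with Dbp (-0.319) and Nr1d2 (-0.3) on the side of Nr1d1. These weights describe the same values as the pairs and are not a separate test.

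**Figure D4:**
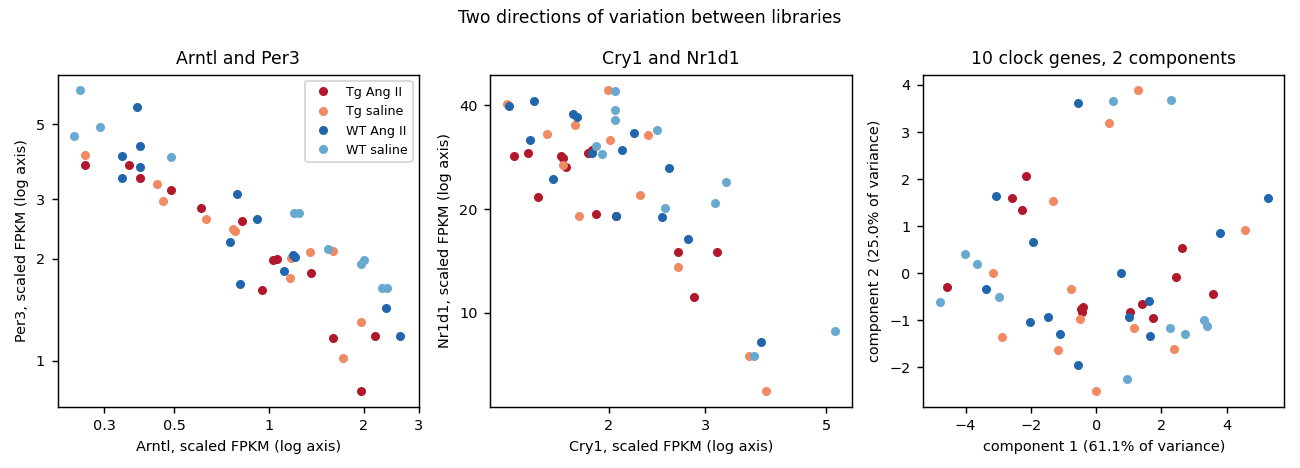
Left and middle: scaled FPKM (log axes) of Arntl against Per3 and of Cry1 against Nr1d1; right: scores of each library on the first 2 components of the 10 clock genes after group and sex means were removed. Each point is 1 of 50 libraries, coloured by group; Per3 falls as Arntl rises in all 4 groups, and 5 libraries combine Nr1d1 under 10 with Cry1 above 3.5.

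Measures of tissue makeup and depth were set beside Arntl and Cry1, 14 relations in all. Arntl went with the summed level of the 6 endothelial markers (r = 0.443, rho = 0.344, permutation p = 0.00422, adjusted p = 0.0301; r = 0.326 without the 2 libraries farthest in Arntl) and of the 6 fibroblast markers (r = 0.406, rho = 0.419, permutation p = 0.0043, adjusted p = 0.0301; r = 0.477 without them). The endothelial sum was 73.0 to 115 scaled FPKM in Tg Ang II, 70.2 to 98.8 in Tg saline, 84.7 to 173 in WT Ang II and 99.9 to 156 in WT saline hearts. Total count gave r = -0.038 with Arntl (permutation p = 0.807, adjusted p = 0.869), and the mitochondrial share of counts gave r = -0.301 (permutation p = 0.0427, adjusted p = 0.149). None of the relations of Cry1 passed. The strongest was with total count (r = -0.312, rho = -0.306, permutation p = 0.0401, adjusted p = 0.149). With the 5 marker sums and the mitochondrial share also removed, r was -0.929 for Arntl and Per3 and -0.862 for Cry1 and Nr1d1, and 36 of 45 pairs passed.

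Library numbers fall into 10 runs parted by gaps of more than 20, and the labels do not say what a run shares. Of the groups, Tg Ang II occurs in 9 runs, Tg saline in 7, WT Ang II in 6 and WT saline in 8. The median of Arntl was 0.36 scaled FPKM in the run 487 to 489 (3 libraries) and 0.26 in 528 to 530 (2 libraries, both Tg). It was 0.43 in 715 to 722 (8 libraries) and 0.39 in 774 to 783 (5 libraries). In the other 6 runs, of 3 to 10 libraries, it lay between 0.77 and 1.96. Medians of 2 or 3 libraries rest on little. Dbp had its highest medians in the same 4 runs (16.8, 23.1, 18.4 and 27.8, against 7.38 to 14.1 in the others), and so had Cry2 (5.18, 5.46, 5.32 and 5.05, against 3.22 to 4.10). Libraries within a run could still differ: in the run 715 to 722 library 715 had 1.97 scaled FPKM of Arntl where the others had 0.29 to 0.82, and in the run 774 to 783 library 774 had 2.37 where the others had 0.25 to 0.39.

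**Figure D5:**
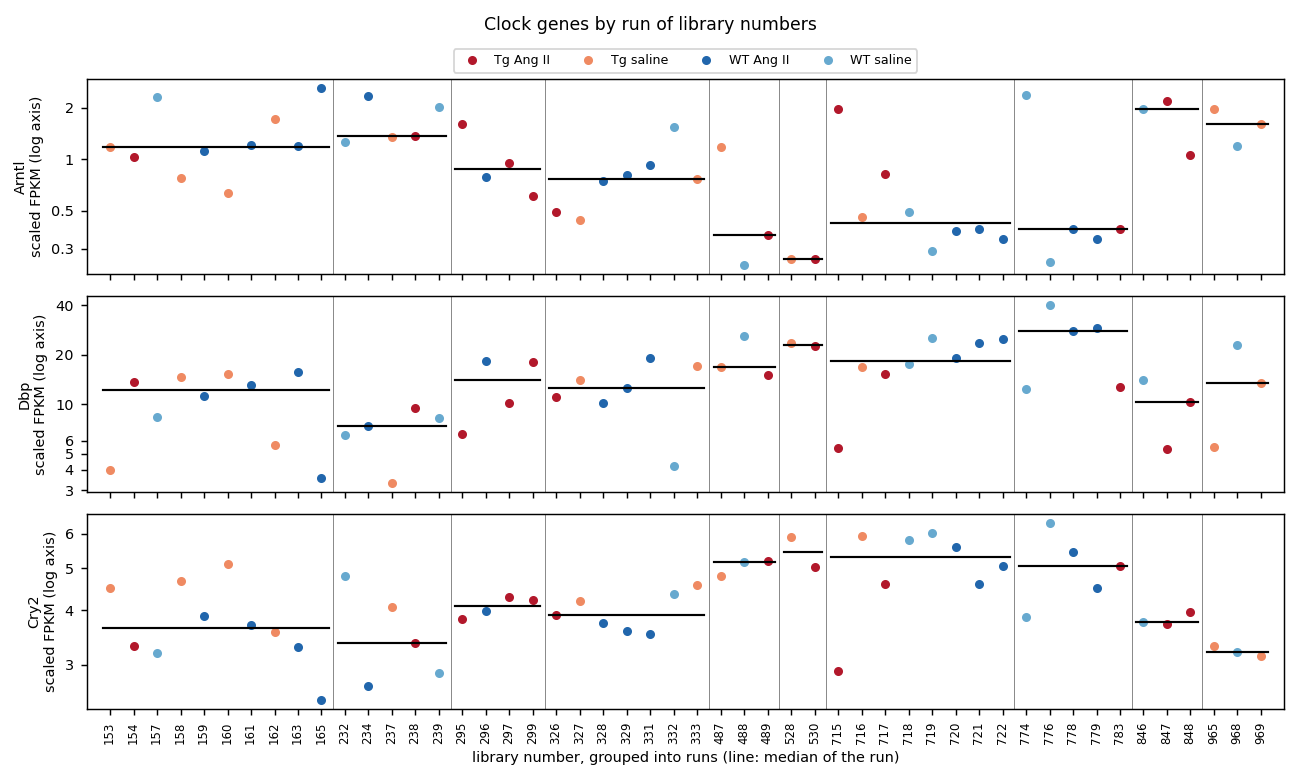
Scaled FPKM (log axis) of Arntl, Dbp and Cry2 in the 50 libraries, ordered by library number; grey lines part the 10 runs of numbers, black lines are the medians of the runs and colours the groups. Between 487 and 783 the medians of Arntl are 0.26 to 0.43 and in the other runs 0.77 to 1.96, while libraries 487, 715 and 774 stand well above their own runs.

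With group and sex in the fit, Cry2 differed between runs (F = 6.35, adjusted p = 0.0219 by edgeR) and ranked 9 of 11628 genes. It was 1 of 10 members called, against 0.490% of all genes. At an unadjusted p under 0.05 there were 7 of 10 members, against 18.3% of genes, and Arntl had F = 4.05 with an adjusted p of 0.0763. Per1, Cry1 and Nr1d1 were the 3 members above that level, and Nr1d1 gave F = 0.876. With the run means also removed, the pairs kept their signs in 45 of 45 cases and 38 passed, with r = -0.907 for Arntl and Per3 and -0.903 for Cry1 and Nr1d1. The median absolute r was then 0.457, against 0.63 before, and Per1 with Cry2 gave r = 0.352. Libraries were still permuted within group and sex and not within runs, so the count of 38 is not a test within runs. What a run shares, and whether the hour of collection is part of it, was not tested.

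The rest of the clock machinery was followed through lists of other clock factors, of kinases and ubiquitin ligase parts that set the lifetime of clock proteins, and of known clock outputs in the heart. For Tg over WT under saline, 1 of 12 other clock factors was called, lower: Hlf, a PAR bZIP factor like Dbp (log2 fold change -0.59 ± 0.24, adjusted p = 0.045 by edgeR). These counts of the lists stand against the 40.6% of all genes called in this comparison. Of 9 kinases and ligase parts 1 was higher, the casein kinase Csnk1d (0.18 ± 0.04), and 3 were lower, Csnk2a1, Csnk1e and Fbxw7 (-0.12 to -0.16). Of 14 cardiac outputs 1 was higher and 4 were lower. Tspo, a protein of the outer mitochondrial membrane that macrophages also make, was higher (0.86 ± 0.14), and Kcnip2, a subunit of the transient outward potassium channel, was lower (-0.43 ± 0.08), as were Dgat2, an enzyme of triglyceride synthesis (-0.52 ± 0.11), and Nampt, an enzyme of NAD salvage (-0.35 ± 0.11).

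Under Ang II, Tg over WT, 2 of 12 other clock factors were called, Bhlhe41, a repressor that binds E-boxes (0.33 ± 0.12), and Timeless (-0.25 ± 0.10). In this comparison 32.8% of all genes were called. Of the kinases and ligase parts 4 of 9 were higher and 3 lower, and of the outputs 1 of 14 was higher and 6 lower, with Kcnip2 at -0.81 ± 0.08 (adjusted p = 1.95e-10 by edgeR). For Ang II over saline, 0 of 12 other clock factors were called by edgeR in either genotype (0 in Tg and 1 in WT hearts at an unadjusted p under 0.05). In WT hearts Noct, a phosphatase known for its night-time peak in mouse tissues, was the 1 output called of 14 (0.45 ± 0.14), and in Tg hearts 0 of 14 outputs were called by edgeR (2 at an unadjusted p under 0.05). The casein kinase Csnk1e was lower with Ang II in both genotypes (-0.20 ± 0.06 in Tg and -0.18 ± 0.06 in WT hearts). It was the 1 called of 9 kinases and ligase parts in Tg hearts. In WT hearts 2 of 9 were called, both lower, the other being Usp7 (-0.13 ± 0.03). For Ang II over saline 8.93% of all genes were called in Tg and 18.6% in WT hearts. For Ang II over saline the counts of these 3 lists lay near or below those shares. For Tg over WT under Ang II the kinases and ligase parts and the outputs lay above 32.8%, and the other clock factors below it. Beside these values, in Tg over WT under Ang II, 5 of 6 endothelial markers were lower, and 4 of 6 fibroblast and 4 of 6 macrophage markers higher. Of 6 cardiomyocyte markers 4 were lower and 1 higher, and of 6 smooth muscle and pericyte markers 3 were lower and 1 higher. The part of these cells in the values of the lists was not tested. Median log2 fold changes of the other clock factors were 0.01 for Tg over WT under saline and 0.04 under Ang II, close to those of all genes.

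Within groups, the wider clock network moved with Arntl. In an edgeR fit with the log2 level of Arntl in each library added to the 8 means of group and sex, 1244 of 11627 genes varied with Arntl, 10.7% of those tested. Of the other 9 members 7 did, all but Cry1 and Nr1d1, and Per3 ranked first of all genes (slope -0.58 ± 0.03, the log2 change per doubling of Arntl). The slopes were -0.66 ± 0.06 for Per2, -0.58 ± 0.07 for Dbp, -0.36 ± 0.07 for Per1, -0.28 ± 0.03 for Nr1d2, -0.27 ± 0.03 for Cry2 and 0.21 ± 0.02 for Clock. With the runs of numbers as a further term, 81 genes varied with Arntl (0.697%), all among the 1244, and 6 of 9 members did. Per1 was the member lost (-0.39 ± 0.11, adjusted p = 0.0856).

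Of 12 other clock factors 8 varied with Arntl, where 10.7% of all genes did (0.697% with runs as a term). Npas2, a paralog of Clock that also pairs with BMAL1 (slope 0.52 ± 0.05), and Nfil3, a repressor at D-boxes (0.23 ± 0.06), went with it. Tef (-0.40 ± 0.02) and Hlf (-0.51 ± 0.04), the PAR bZIP relatives of Dbp, went against it, as did Ciart, a repressor of CLOCK and BMAL1 (-0.62 ± 0.09), and Cipc, Bhlhe41 and Rora (-0.14 to -0.20). With runs as a term 5 of the 12 remained, namely Tef, Hlf, Npas2, Cipc and Ciart. Of 14 cardiac outputs 8 varied with Arntl, 7 of them against it. Those were Wee1, a kinase that holds back mitosis (-0.42 ± 0.05), Tcap, a Z-disc protein that caps titin (-0.22 ± 0.03), Klf15, a regulator of cardiac metabolism (-0.23 ± 0.04), and Pik3r1, Dgat2, Nampt and Kcnh2 (-0.13 to -0.19). Cdkn1a, a cell cycle inhibitor, went with Arntl (0.37 ± 0.08). Wee1 and Tcap were the 2 outputs called with runs as a term. Of 9 kinases and ligase parts only the deubiquitinase Usp2 varied with Arntl (-0.28 ± 0.03), a share close to the 10.7% of all genes. At an unadjusted p under 0.05 by edgeR there were 4 of the 9.

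Lists of genes that respond to hormones, stimulation or temperature were set beside Arntl in the same fit. In it 10.7% of all genes were called, and 0.697% with runs as a term. Of 8 glucocorticoid-responsive genes 2 were called, Klf9 (-0.15 ± 0.03) and Tsc22d3 (-0.18 ± 0.06). With runs as a term 0 of the 8 were called by edgeR, and 2 had an unadjusted p under 0.05. Of 8 immediate early genes 0 were called by edgeR, and 0 of 8 temperature-responsive genes, with 1 of each at an unadjusted p under 0.05. Markers of cells moved in part: 2 of 6 endothelial markers, Cldn5 (0.41 ± 0.06) and Kdr (0.13 ± 0.04), and 3 of 6 fibroblast markers, Pdgfra, Dpt and Col1a1 (0.11 to 0.18), went with Arntl, while 0 of 6 markers were called by edgeR for cardiomyocytes (2 at an unadjusted p under 0.05), macrophages (1) and smooth muscle with pericytes (0). With runs as a term, Cldn5 was the 1 marker still called (0.35 ± 0.09, adjusted p = 0.0376 by edgeR), and the calls of Kdr and the 3 fibroblast markers were lost.

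As a description, genes were also ranked by r with Arntl over the 50 libraries after group and sex means were removed, among 4471 genes other than the members with a mean of at least 5 scaled FPKM. The median absolute r over all genes tested was 0.193. Nearest on the side of Arntl were Slc41a3, a magnesium transporter (r = 0.803), Trp53i11 (0.758), Rflnb (0.742), Sh3bp5 (0.739) and Cmtm6 (0.723), followed by Fam220a, S100a16, Cd93, Ckap4 and Serpinh1 (0.681 to 0.696). On the opposite side stood Tef (-0.942), Usp2 (-0.868), Tspan4 (-0.853), Fam76a (-0.825) and Adamtsl4 (-0.818), followed by Cipc, Gpcpd1, Rhobtb1, Mid1ip1 and Angptl2 (-0.756 to -0.809). Among all genes tested, Per3 ranked 2, Per2 5, Cry2 8, Clock 19, Nr1d2 24 and Dbp 25 by absolute r, while Per1 ranked 113, Cry1 3551 and Nr1d1 8835.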

How the data were processed

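The authors' deposited table holds, for each gene and library, a whole-number count and an FPKM value. Per the submitters' processing notes, their tools were cutadapt 1.9, FastQC, HISAT2 2.0.4 and StringTie 1.3.4d. The counting tool, its strand setting and the build are not given in the sources used here. All 10 members have the positions of GENCODE M21 (GRCm38). FPKM as deposited is relative to each library's total, so it was divided by a median-of-ratios factor.

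Counts were tested with edgeR 4.0.16 (quasi-likelihood; R 4.3.3) over 50 libraries with 8 means (genotype, treatment, sex), the sexes weighted equally, and Benjamini-Hochberg adjustment over 11628 genes. Alternatives used limma 3.58.1 and DESeq2 1.42.0. The steps were tested on simulated data. Correlations used log2(scaled FPKM + 1) with a pseudocount of 1 and two-sided permutations (Python 3.11.15, numpy 2.4.6), 20000 for the check without 2 libraries. The fit with Arntl as a covariate was added after the data were seen, and noise in Arntl itself shrinks its slopes. All members are named, with up to 4 called genes of each list in a comparison and all of them for Arntl, and the 10 genes nearest Arntl on each side. Members and lists were chosen with earlier results of these data known.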

Additional observations from a re-analysis of the deposited data

How the results depend on the processing

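No paired analysis was possible because no library number is shared between groups. Without one library in turn, members called for Ang II over saline in WT ranged from 0 to 1 (Cry1, without library 328), and in the other 5 comparisons stayed at 0. Of 420 member log2 fold changes under 7 other settings, 0 were called and 32 turned in sign, with absolute values of at most 0.31 after the turn, and the cause was not tested. With library size alone, Tg over WT under saline gave Per1 0.025, Per2 0.0494, Cry2 0.14 and Nr1d1 0.11, Tg over WT under Ang II gave Per2 0.0654 and Cry1 0.00845, Ang II over saline in Tg gave Arntl 0.00116, the difference of responses gave Cry2 -0.0141, and females over males gave Dbp 0.0315. With runs as a term, Tg over WT under saline gave Clock -0.0222, Per2 0.13 and Cry2 0.11, Tg over WT under Ang II gave Cry2 -0.0166, Ang II over saline in WT gave Per2 -0.0645 and Nr1d2 -0.0179, Ang II over saline in Tg gave Arntl 0.31, Per1 -0.0401, Per2 -0.22 and Nr1d2 -0.15, the difference of responses gave Per2 -0.16, Per3 -0.0451 and Cry2 -0.13, and females over males gave Dbp 0.13. With limma, Tg over WT under saline gave Per2 0.0036 and Cry2 0.0126, Ang II over saline in Tg gave Dbp 0.0173, and the difference of responses gave Per2 -0.0538. Without libraries 329 and 847, Ang II over saline in Tg gave Per3 0.0222 and Dbp 0.00448, Tg over WT under Ang II gave Arntl -0.10 and Per2 0.0203, and the difference of responses gave Nr1d2 0.0259.

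The count of pairs called, 35 of 45, was 34 to 38 under other settings over most libraries, among them a pseudocount of 0.1 (37), no means removed (36), FPKM as deposited (34), and without libraries 329 and 847 (35). Leaving out library 965 or the 5 libraries low in Nr1d1, and removing marker sums, were settings chosen after seeing the data. Within groups, which hold fewer libraries, it fell to 6 in Tg saline and 17 in WT saline hearts, and Arntl and Nr1d1 gave r = -0.138 in WT Ang II hearts, the opposite sign to the 50 libraries. Of 117 correlations of Arntl under these settings, 106 kept sign and call. With a pseudocount of 0.1, Arntl and Cry1 passed by permutation (r = -0.304, adjusted p = 0.0442). Genes that vary with Arntl numbered 1244, 1252 with TMM scaling, 1538 without libraries 329 and 847, and 81 with runs as a term. Cry2 was called between runs under TMM scaling, without libraries 329 and 847, and in the 6 runs of at least 4 libraries. The 6 members in the top 5% by BCV were also 6 under TMM scaling, without those libraries and with runs as a term. Depth was ample for all members, the lowest count being 113.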

Other observations

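Temperature and glucocorticoids are known inputs to the clock, and genes that respond to them were counted in the same comparisons. For Tg over WT under saline, 5 of 8 temperature-responsive genes were higher, among them the chaperones Hsp90aa1 (log2 fold change 0.94 ± 0.11 SE), Hspa1b (0.81 ± 0.17) and Hsph1 (0.33 ± 0.10), against 40.6% of all genes called there in either direction. Under Ang II 3 of 8 were higher, close to the 32.8% of all genes called. For Ang II over saline, 1 of 8 temperature-responsive genes was called in Tg hearts, lower, against 8.93% of all genes. In WT hearts 2 of 8 were higher, Hsp90aa1 (0.53 ± 0.10) and Hspa8 (0.20 ± 0.05), and 1 was lower, against 18.6%. The lower gene in both was Cirbp, a cold-inducible RNA-binding protein known to bind Clock mRNA in mouse cells. Its values were -0.34 ± 0.10 in Tg hearts (adjusted p = 0.0281 by edgeR) and -0.29 ± 0.10 in WT hearts (adjusted p = 0.0406). Of 8 glucocorticoid-responsive genes 2 were called for Tg over WT under saline, a smaller share than among all genes. Sgk1, a kinase of salt transport, was lower (-0.70 ± 0.18), and Mt2, a metallothionein, was higher (1.28 ± 0.25). For Ang II over saline, Mt2 was the 1 of 8 called in WT hearts (1.38 ± 0.24, against 18.6% of all genes), and 0 of 8 were called by edgeR in Tg hearts (1 at an unadjusted p under 0.05). Of 8 immediate early genes, the phosphatase gene Dusp1 was the 1 called, lower for Tg over WT under saline (-0.66 ± 0.17) and for Ang II over saline in WT hearts (-0.48 ± 0.16).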
